A study of Mus musculus with 24 samples.

Results

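The 31 cell cycle genes described here are markers of dividing cells. They were matched by the gene name printed on the array, and where a gene had several probes the brightest by mean Cy5 signal stood for it. They are 31 of the 37074 genes named on the array, and 22 of them gave enough signal to be tested, beside 18649 genes in all. They were read in the right liver lobe of 24 C57BL/6JRcc mice, an inbred laboratory strain, all labelled female. From 3 weeks of age the mice were housed singly and ate a semi-synthetic diet for 3 weeks, with 16% of energy from fat, 20% from protein, 32% from starch and 32% from monosaccharide. The monosaccharide was glucose alone in 12 mice (GLU) and glucose with galactose in equal parts in the other 12 (GLU+GAL). The mice were killed at postnatal day 42, without food and in the light phase. The study asked what follows when galactose takes the place of part of the glucose after weaning. Each mouse's RNA was labelled with the dye Cy5 and hybridised on its own Agilent array against a Cy3-labelled pool of all mice, so each value is a log2 ratio of that mouse over the pool.

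A cell that enters division passes a G1 commitment step driven by cyclin D, loads the MCM helicase onto DNA, makes deoxynucleotides and copies its DNA in S phase. It then builds a spindle and enters mitosis under the control of cyclin B with CDK1. It separates its chromosomes and leaves mitosis when the anaphase-promoting complex marks proteins such as cyclin B for destruction. Most of the genes are switched on in waves by E2F factors at the start of S phase and by MuvB complexes before mitosis. Adult hepatocytes rarely divide, while the liver of a mouse after weaning still grows. Hepatocytes, Kupffer cells, endothelial cells and blood cells all use the same division genes, so RNA of whole liver does not say which cells carry them.

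The promoters of 5 members are shown because the letters in them differ between the genes that the results turn on. Top2a is the gene against which the others were set, Cdc20, Mcm6 and Birc5 are the members that followed it, and Tk1 is the member that did not move with the rest. Each line gives the 120 bases before the start site, 5′ to 3′ on the gene's own strand, from RefSeq's table for GRCm38.p6. The windows are chr11:99024190-99024309 on the minus strand for Top2a, chr4:118437344-118437463 on the minus strand for Cdc20, chr1:128359706-128359825 on the minus strand for Mcm6, chr11:117849117-117849236 on the plus strand for Birc5 and chr11:117826015-117826134 on the minus strand for Tk1. Capitals mark matches on either strand to the letters of 3 known elements. CCAAT is bound by the factor NF-Y. TTTGAA is the cell cycle homology region of mitotic genes, and a match on the other strand reads as its reverse complement. The E2F letters searched were TTTCCCGC, TTTGGCGC, TTTCGCGC and TTTGCCGC. In the first run of capitals of Mcm6, E2F matches on both strands overlap.
Top2a: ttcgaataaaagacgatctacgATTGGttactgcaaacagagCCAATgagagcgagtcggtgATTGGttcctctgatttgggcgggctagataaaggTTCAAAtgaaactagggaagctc
Cdc20: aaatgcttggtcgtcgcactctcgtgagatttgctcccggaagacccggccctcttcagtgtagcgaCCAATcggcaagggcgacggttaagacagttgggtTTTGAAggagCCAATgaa
Mcm6: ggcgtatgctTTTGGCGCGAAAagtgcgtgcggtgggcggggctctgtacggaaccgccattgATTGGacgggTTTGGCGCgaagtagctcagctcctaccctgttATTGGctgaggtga
Birc5: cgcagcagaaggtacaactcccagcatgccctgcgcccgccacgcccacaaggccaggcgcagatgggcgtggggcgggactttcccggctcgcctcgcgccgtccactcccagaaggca
Tk1: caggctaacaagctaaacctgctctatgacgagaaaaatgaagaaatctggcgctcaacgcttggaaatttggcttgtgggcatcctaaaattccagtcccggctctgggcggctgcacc
RefSeq's table held 26 windows, of 250 bases before to 50 after the start, for 25 of the 31 genes. CCAAT was found in 22 of the 26 windows (84.6%), against 37.4% of all 32851 windows in the table. TTTGAA was found in 16 of 26 (61.5%), against 17.9% of all windows. All 16 windows with TTTGAA held CCAAT as well, and 6.95% of all windows held both. The E2F letters were found in 4 of 26 (15.4%), against 2.26% of all. They were in Mcm3, Mcm5, Mcm6 and Cdk1. No match to any of these letters was found in the windows of Birc5, Tyms, Tk1 and Nusap1. These are matches of letters, not measured binding.

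The array read 18 of the 22 tested members well above background in Cy5 on all 24 arrays, the call of Agilent's software against local background. A gene was tested when 6 or more arrays of either diet had this call. At that limit lay Kif20a, called on 6 GLU and 3 GLU+GAL arrays. The 3 other tested members not called on every array were Ccnb1, on 9 and 2, Top2a, on 11 and 8, and Prc1, on 11 and 12. The 9 members not tested were mostly genes of mitosis. Just outside the limit lay Cenpf, a kinetochore protein, and Nusap1, a microtubule protein, each called on 6 of 24 arrays but on no more than 4 of either diet. Ccne2, the cyclin of the G1 to S transition, was called on 4 arrays, all of them GLU. Cdk1, the kinase that drives mitosis, was called on 3 arrays, the spindle checkpoint kinase Bub1 and the spindle factor Tpx2 on 2 each, Aurkb on 1, and Bub1b and the spindle motor Kif11 on none. No level or fold is given for these 9, since they were not well above background on most arrays. In the pool channel 12 of the 22 tested members were well above background on all 24 arrays. Top2a was so on 15 and Ccnb1 on 1, so the denominators of their ratios are dim.

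All 10 hepatocyte markers, among them Alb and Cyp2e1, were well above background on every array, as the tissue label states. The pool channels of 3 arrays were less like the others, although each array carried the same pool. The median Cy3 correlation with the other arrays was 0.968 for GLU+GAL 4, 0.9897 for GLU+GAL 5 and 0.9898 for GLU 1, and at least 0.9957 for the rest. GLU+GAL 4 was the highest array for 7 of the 22 members and the lowest for 4. GLU+GAL 12 went against its label, with signal for the Y-linked Ddx3y and Eif2s3y and none well above background for Xist. Values without these arrays are given beside the diet difference of the members, their correlation, the genes following Top2a and the marker lists. The arrays lay on 3 slides of 8, with 4 of each diet.

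No cell cycle gene passed the test between the diets. With limma's moderated test over 18649 genes and Benjamini-Hochberg adjustment, 0 of 22 members passed an adjusted p of 0.05, as did 0% of all genes, the lowest of theirs being 0.523. With no adjustment 0 of 22 members had a p under 0.05, against 4.31% of all genes (803). The fitted difference of GLU+GAL minus GLU was above 0 in 9 members and below 0 in 13. Its median was -0.014 over the members and 0.0013 over all genes on the log2 scale, and the median absolute difference was 0.035 and 0.046. Values of the diets overlapped for all 22. The widest 95% interval was that of Ccnd1, from -0.46 to 0.25, and the narrowest that of Tyms, from -0.098 to 0.11. With 12 mice per diet, differences inside the interval of a gene remain possible for that gene.

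**Figure D1:**
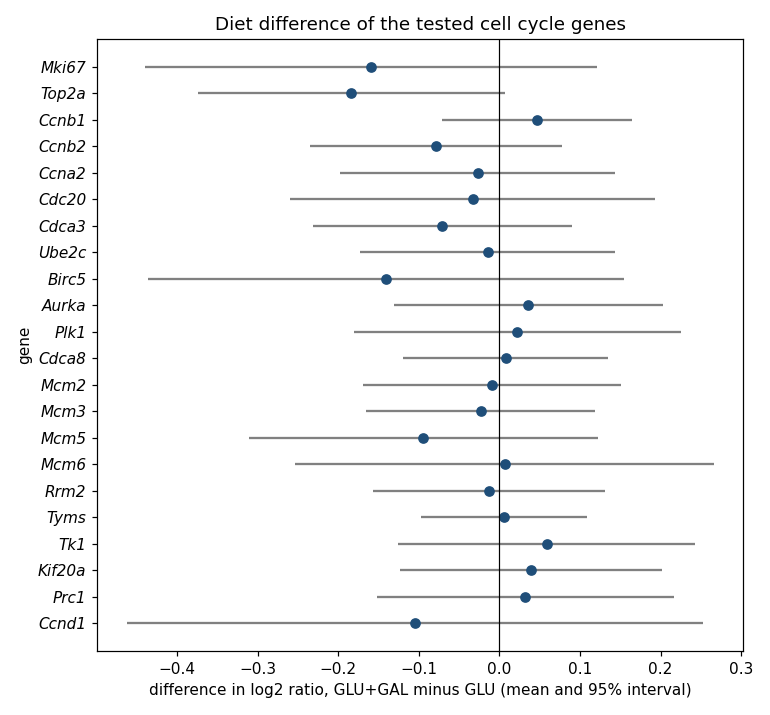
Diet difference of the 22 tested cell cycle genes, as the fitted difference in log2 ratio of GLU+GAL minus GLU (points) with its 95% interval (lines), 12 mice per diet. All 22 intervals include 0, and Top2a, at -0.18, reaches from -0.37 to 0.0070.

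At the entry to the cycle stood Ccnd1, cyclin D1, which couples growth signals to the G1 phase. It ran from -0.65 through a median of 0.23 to 0.68 in GLU mice and from -1.09 through 0.33 to 0.53 in GLU+GAL mice. The diets overlapped, and 3 mice lay far below the others in GLU+GAL, namely mouse 9 at -1.09, mouse 12 at -0.59 and mouse 3 at -0.55, with GLU 12 at -0.65. Its difference was -0.10 ± 0.17 (SE, 12 mice per diet, adjusted p = 0.999), and without GLU+GAL 9 it was -0.00080. The SD of its log ratio over 24 mice was 0.46, above that of 98.4% of all genes.

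Of the MCM helicase, which licenses replication origins, all 4 members were tested, 1 higher and 3 lower in GLU+GAL. Mcm6 ran from -0.85 through -0.40 to 0.15 in GLU and from -1.01 through -0.37 to 0.20 in GLU+GAL, a difference of 0.0065 ± 0.13 (SE). Mcm5 ran from -0.12 through 0.11 to 0.40 in GLU and from -0.83 through 0.045 to 0.59 in GLU+GAL. Its difference of -0.094 ± 0.11 was the smallest p of the group (unadjusted p = 0.381, limma), and it was -0.019 without GLU+GAL 4, the lowest array. Mcm2 and Mcm3 differed by -0.0091 and -0.023.

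The enzymes of deoxynucleotide supply make the precursors of DNA synthesis. Tk1, thymidine kinase, ran from -0.32 through -0.039 to 0.35 in GLU and from -0.33 through -0.0094 to 0.63 in GLU+GAL. Its difference of 0.059 ± 0.090 (SE) was the highest of all members (adjusted p = 0.999, limma), and it was 0.0058 without GLU+GAL 3. Tyms, thymidylate synthase, and Rrm2, the small subunit of ribonucleotide reductase, differed by 0.0055 and -0.013. Tyms varied least of the members, with an SD over 24 mice of 0.11.

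Among the cyclins of S phase to mitosis, Ccnb2 ran from -0.36 through 0.00025 to 0.19 in GLU and from -0.34 through -0.10 to 0.33 in GLU+GAL. Of 12 GLU+GAL mice 9 lay below the mean of GLU, and its difference was -0.078 ± 0.076 (SE, adjusted p = 0.999, limma). Ccnb1 and Ccna2 differed by 0.047 and -0.027. Of the mitotic kinases and the chromosomal passenger complex, which corrects chromosome attachment, Birc5 (survivin) had the largest difference. It ran from -0.53 through 0.012 to 0.34 in GLU and from -0.74 through -0.25 to 0.64 in GLU+GAL, a difference of -0.14 ± 0.14 (adjusted p = 0.999, limma). The GLU+GAL values spanned more than the GLU values at both ends. The kinases Aurka and Plk1 and the passenger subunit Cdca8 differed by 0.036, 0.022 and 0.0079.

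Prc1, which bundles microtubules of the spindle midzone, ran from -0.22 through 0.044 to 0.55 in GLU and from -0.22 through 0.068 to 0.60 in GLU+GAL. Its difference was 0.032 ± 0.090 (SE). The midzone motor Kif20a ran from -0.26 through -0.11 to 0.49 in GLU and from -0.30 through -0.0031 to 0.36 in GLU+GAL, a difference of 0.040 ± 0.079. The highest values of both genes were those of GLU 1 and GLU+GAL 4, 2 of the 3 arrays with unlike pool channels. At mitotic exit, Cdc20, the activator of the anaphase-promoting complex, ran from -0.24 through 0.14 to 0.49 in GLU and from -0.40 through 0.0079 to 0.74 in GLU+GAL, a difference of -0.033 ± 0.11. Cdca3 ran from -0.24 through 0.16 to 0.26 in GLU and from -0.37 through -0.025 to 0.38 in GLU+GAL, a difference of -0.071 ± 0.079. The ubiquitin-conjugating enzyme Ube2c differed by -0.014.

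Top2a, the topoisomerase that untangles DNA, and Mki67, the coat protein of mitotic chromosomes known as Ki-67, had the largest differences of all members. Top2a ran from -0.18 through 0.097 to 0.56 in GLU and from -0.44 through -0.13 to 0.52 in GLU+GAL. Here too 9 of 12 GLU+GAL mice lay below the mean of GLU, with a difference of -0.18 ± 0.093 (SE, unadjusted p = 0.058, adjusted p = 0.999, limma). Within slides 1, 2 and 3 the difference was -0.14, -0.082 and -0.33. With Agilent's processed signals it was -0.74 and with the deposited value table -0.42, and it did not pass in any setting. Mki67 ran from -0.51 through -0.038 to 0.19 in GLU and from -1.04 through -0.30 to 0.58 in GLU+GAL, a difference of -0.16 ± 0.14 (adjusted p = 0.999). It was 0.10, -0.22 and -0.36 within the slides. Its lowest values were those of GLU+GAL 4 and GLU+GAL 5, and without GLU 1, GLU+GAL 4 and GLU+GAL 5 the difference was -0.0072.

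Wider lists of the same machinery were fitted in the same way. Of 29 tested genes of DNA replication 16 were higher and 13 lower in GLU+GAL, and of 29 other mitosis genes 17 and 12. Of 12 cell cycle transcription factors 8 and 4 were, and of 17 G1 cyclins, CDKs and inhibitors 11 and 6. Of 8 genes typical of perinatal liver 5 and 3 were. None passed the adjusted threshold in any of the 5 lists. The smallest p in each belonged to Pole, the leading-strand polymerase (0.14 ± 0.065), Lmnb1 (0.12 ± 0.063), the repressor E2f8 (-0.43 ± 0.22), the CDK inhibitor Cdkn1b (0.13 ± 0.047) and Plagl1 (-0.15 ± 0.092), each with an adjusted p of 0.999 in limma.

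The spread between single mice was larger than the difference between the diets. The mean of the 22 members in a mouse was 0.027 ± 0.13 (SD, n = 12) in GLU and -0.0044 ± 0.17 (SD, n = 12) in GLU+GAL, a difference of -0.032. It was 0.0062, 0.017 and -0.12 within slides 1, 2 and 3, -0.0073 without GLU 1, GLU+GAL 4 and GLU+GAL 5, and -0.018 without GLU+GAL 12. The highest means were those of GLU+GAL 1 at 0.32, GLU+GAL 11 at 0.29 and GLU 11 at 0.19, and the lowest were GLU+GAL 9 at -0.26, GLU 7 at -0.17 and GLU+GAL 12 at -0.15. So both the highest and the lowest mean were of GLU+GAL mice. Of the 22 members 20 were above the pool in GLU+GAL 11 and 4 in GLU+GAL 9. GLU+GAL 9 was the lowest mouse for 7 members and GLU+GAL 1 the highest for 5.

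**Figure D2:**
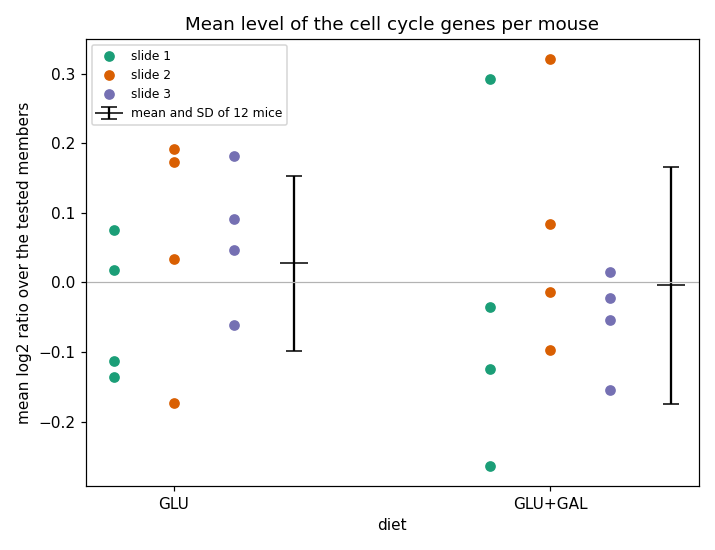
Mean log2 ratio of the 22 tested cell cycle genes in each mouse, by diet, with points coloured by slide and the bar giving the mean and SD of 12 mice. The means run from -0.17 to 0.19 in GLU and from -0.26 to 0.32 in GLU+GAL, so the diets overlap.

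The spread between mice was set against the spread of the pool, which was the same material on every array. Its values still vary through labelling, the measurement of each spot and the joint normalisation of both channels. For each gene the SD of the Cy5 signal over the arrays was divided by that of Cy3. The ratio was above 1 in 19 of the 22 members, with a median of 1.48 over the members and 1.80 over all genes. It was 7.18 for Ccnd1, 4.70 for Birc5, 4.25 for Tk1 and 3.70 for Cdc20. It was below 1 for Mcm2 (0.874), Ccnb1 (0.907) and Kif20a (0.953). Without GLU+GAL 4 the median was 2.03 and all 22 members were above 1.

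The members rose and fell together from mouse to mouse. Over the 231 pairs of tested members the median Pearson r across 24 mice was 0.366, against 0.0085 over all pairs of tested genes. Of the member pairs 33.8% had an r above 0.5, against 4.37% of all pairs. These correlations are a description, since genes read on the same array share its RNA, dye and normalisation. In the pool channel of the same arrays the median over the member pairs was 0.065, and over all genes 0.016. There 12.1% of the member pairs had an r above 0.5, against 5.70% of all pairs. In the Cy5 channel, scaled as the pool channel was, the member median was 0.533 and that over all genes -0.002. With each slide centred the member median of the log ratios was 0.357. Without GLU 1, GLU+GAL 4 and GLU+GAL 5 it was 0.454 in the log ratios and 0.036 in the pool channel, and without GLU+GAL 12 it was 0.371 in the log ratios.

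**Figure D3:**
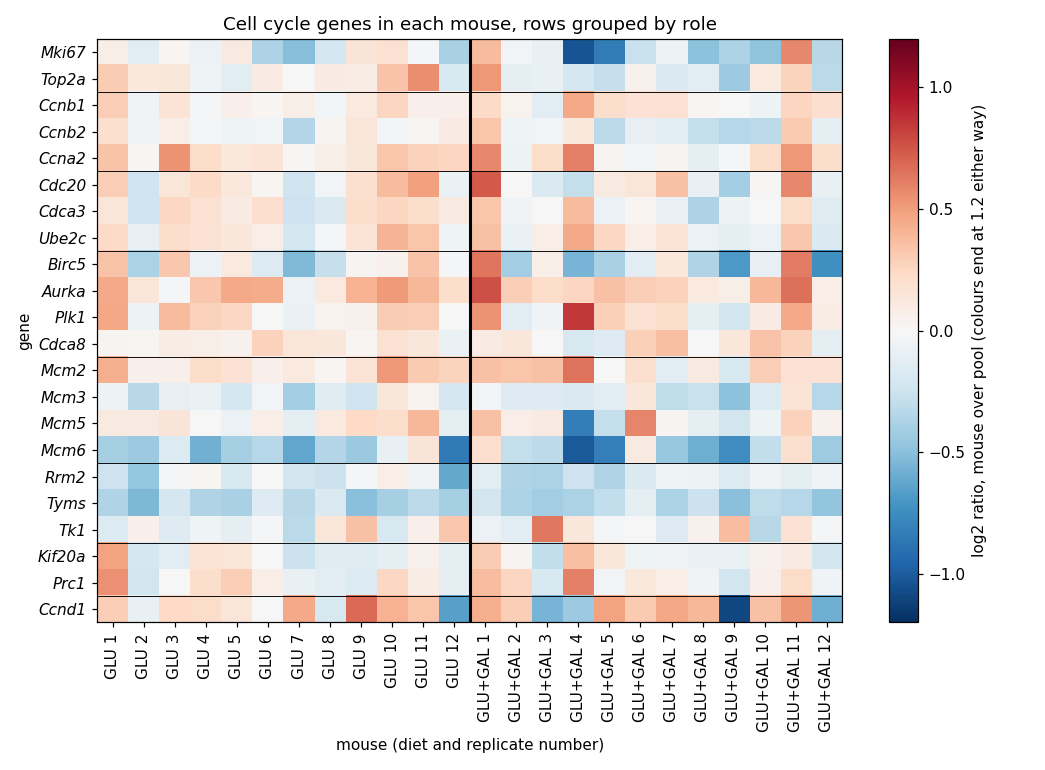
Log2 ratio of each tested cell cycle gene (rows, grouped by role) in each of 24 mice (columns, GLU left and GLU+GAL right of the line), blue below and red above the pool. GLU+GAL 1 and GLU+GAL 11 are red in most rows and GLU+GAL 9 is blue in most, while GLU+GAL 4 is red in some rows and blue in others.

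The genes of S phase to mitosis were more tightly linked than those of DNA synthesis. Among the 14 tested genes of that kind (cyclins A and B, mitotic kinases, spindle, mitotic exit, Top2a and Mki67) the median r was 0.534 over 91 pairs, and 83 were above 0. The highest were Prc1 with Kif20a at 0.858, Plk1 with Ube2c at 0.856 and Cdc20 with Birc5 at 0.843. Their r in the pool channel was 0.694, 0.842 and 0.176, so of these 3 only the last was low in the pool. Without GLU 1, GLU+GAL 4 and GLU+GAL 5 the 3 pairs were at 0.811, 0.836 and 0.844 in the log ratio and 0.044, 0.464 and 0.229 in the pool. The median of the 91 pairs in the pool channel was 0.186 with all arrays and 0.052 without GLU+GAL 4.

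The 7 genes of DNA synthesis were less alike, with a median r of 0.218 over 21 pairs, and 0.274 over the 98 pairs between them and the mitotic genes. In the pool channel these medians were -0.054 and 0.0077, also below the 0.186 of the mitotic genes there. The 4 MCM genes had a median of 0.493 over 6 pairs, from -0.085 to 0.867 for Mcm5 with Mcm6. Without GLU+GAL 4 it was 0.619, and all 6 pairs were above 0, while the mitotic genes had a median of 0.602. Without GLU 1, GLU+GAL 4 and GLU+GAL 5 the MCM median was 0.664 and the mitotic one 0.629. Ccnd1 had a median r of 0.350 with the other 21 members, highest with Cdc20 at 0.659. Tk1 was the only member whose median with the others was below 0, at -0.169, with 3 of 21 above 0. Its lowest was Ccnd1, at -0.556. Tk1 was bright on every array, and its other probes that were well above background on all 24 arrays had r of 0.873 and 0.928 with the chosen probe, so its pattern was the same on each. Its highest values were in GLU+GAL 3 (0.63), GLU+GAL 9 (0.37) and GLU 9 (0.35), of which GLU+GAL 9 had the lowest member mean. Probes agreed less in several other members. For Mcm3 the other probes had r of 0.682 and 0.566, called on 24 arrays each, and -0.015, called on 17. For Tyms they had r of 0.547, called on 24 arrays, and -0.256, called on 21. The other probe of Cdc20, called on 24 arrays, had r of 0.583. That of Ccna2, called on 13 arrays, had r of 0.353, and a Prc1 probe called on 9 had 0.356.

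**Figure D4:**
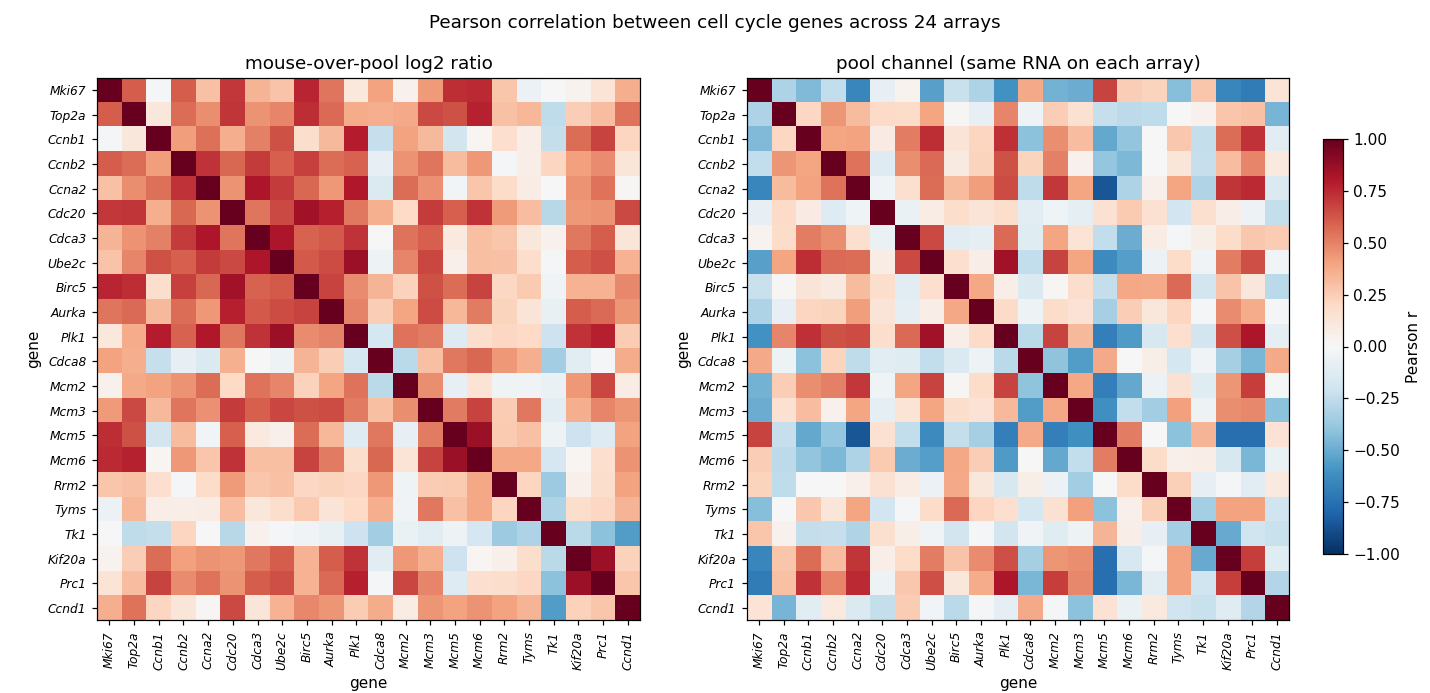
Pearson correlation between the 22 tested cell cycle genes across 24 arrays, in the mouse-over-pool log2 ratio (left) and in the pool channel alone (right). The median over the 231 pairs is 0.366 on the left and 0.065 on the right, the row of Tk1 is pale or blue on the left, and the blocks on the right are weaker without GLU+GAL 4.

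To find the genes that moved with Top2a, every tested gene was regressed on it over the 24 mice, with diet in the model, in limma. Of the 21 other members 20 had a positive slope and 3 passed an adjusted p of 0.05, against 0.145% of all genes with a positive slope (27). At an unadjusted p under 0.05 there were 14 of 21, against 4.82% of all genes. Mcm6 rose by 1.15 ± 0.16 (SE) per log2 unit of Top2a (adjusted p = 0.0017), with r of 0.768. Cdc20 rose by 0.90 ± 0.17 (adjusted p = 0.0165) and Birc5 by 1.16 ± 0.22 (adjusted p = 0.0187). These are the promoters shown above with E2F letters and CCAAT (Mcm6), with TTTGAA and CCAAT (Cdc20) and with none of the letters (Birc5). Tk1 had the only negative slope, -0.21 ± 0.19 (adjusted p = 0.795).

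The count of 3 moved with single mice and with the scaling. Without GLU 11, GLU+GAL 1 or GLU+GAL 9 in turn, the mice at the ends of the Top2a range, only Mcm6 passed, and with the slide as a block likewise. Without GLU+GAL 11 Mcm6 and Cdc20 passed. Without GLU 1, GLU+GAL 4 and GLU+GAL 5 there were 4, with Mcm5 added, and without GLU+GAL 12 the count was 3. Across 37 alternative settings with Top2a as anchor, each array left out included, Mcm6 passed in 36, with adjusted p from 1.0e-06 to 0.892, Cdc20 in 31 (0.0019 to 0.892) and Birc5 in 30 (0.0019 to 0.919). None of the 3 passed with the replicate number as a block. Top2a is a dim anchor, and its 3 other probes, called on at most 4 arrays, had r of 0.205 to 0.222 with the chosen one. With Birc5 as anchor, called on all arrays and added after the values were seen, 3 members passed (Cdc20, Mki67 and Top2a), against 0.0804% of all genes, and 13 of 21 had an unadjusted p under 0.05, against 4.08%. The other probe of Birc5, called on 3 arrays, had r of 0.191 with the chosen one. Since Birc5 was 1 of the 3 followers of Top2a, it is no separate check. With Mki67 as anchor 0 members passed in limma, as did 0% of all genes, and Mcm6, Cdc20, Birc5 and Mcm5 were at an adjusted p of 0.052. At an unadjusted p under 0.05 there were 9 of 21, against 6.32%.

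Markers of the other cells in liver were read beside these genes, since a change in the share of a cell type and a change in RNA per cell cannot be told apart in whole tissue. Of 9 marker lists, the mean over the markers of a mouse correlated with Top2a past an adjusted p of 0.05 (permutation test with 100000 resamples, 2-sided, adjusted over the 9 lists) in 3. Kupffer cell markers, of the resident macrophages of the liver, had r = 0.743 (p = 4e-05, adjusted p = 0.00036) and rho = 0.708 (p = 0.00016, adjusted p = 0.0014). B cell markers had r = 0.586 (p = 0.0028, adjusted p = 0.0128) and rho = 0.592 (p = 0.0032, adjusted p = 0.0142). Endothelial markers had r = 0.523 (p = 0.0091, adjusted p = 0.0274), and rho = 0.473 did not pass (p = 0.021, adjusted p = 0.062). Hepatocyte markers had r = -0.246 (p = 0.246, adjusted p = 0.443) and rho = -0.287 (p = 0.173, adjusted p = 0.389). The stellate, cholangiocyte, T and NK cell, neutrophil and erythroid lists lay between -0.076 and 0.368 and did not pass by r or rho. Diet was not in this test, unlike the regression on Top2a, and the Top2a diet difference was -0.18. Kupffer means were 0.17 in GLU and -0.061 in GLU+GAL, and B cell means -0.0075 and -0.11. Endothelial means were 0.0056 and 0.0098. How much of each r lies between the diets was not tested.

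The Kupffer relation was positive within each slide, at r of 0.873, 0.717 and 0.597 over 8 mice each. It was 0.647 without GLU 11 and GLU+GAL 1, the mice farthest from the Top2a median, 0.749 without GLU+GAL 4 and 0.743 without GLU+GAL 12. The B cell relation was 0.883, 0.649 and 0.521 within the slides and 0.590 without those mice, and the endothelial one 0.810, 0.391 and 0.338 and 0.543. In the pool channel, where no mouse differs, the r of the Kupffer list with Top2a was 0.467, that of the B cell list -0.391 and that of the endothelial list 0.065. GLU 11 was highest for Top2a and for the Kupffer mean (0.75) and GLU+GAL 9 lowest for both (-0.57). Of the 3 lists the Kupffer list passed in all 10 other settings with Top2a as anchor and without each of the 24 arrays. Without the filter, and with the probe brightest over both channels, the Kupffer and endothelial r did not change. The B cell r did not change with the latter, so these settings were no separate check there. The B cell list passed in 7 of 10, and was at an adjusted p of 0.147 with Agilent's signals, 0.070 with Cy5 alone and 0.065 with the mean of all probes (permutation tests). The endothelial list passed in 6 of 10, and was at an adjusted p of 0.544 with Agilent's signals (r = 0.195), 0.073 with the deposited table, 0.059 with the slide as a block and 0.685 with the replicate block (r = 0.116, permutation tests). It did not pass without GLU 10, GLU+GAL 9, GLU+GAL 11 or GLU+GAL 12 in turn, at r of 0.486 without GLU+GAL 12, and the B cell list did not pass without GLU+GAL 9. Without GLU 1, GLU+GAL 4 and GLU+GAL 5 all 3 passed, at r of 0.759, 0.647 and 0.488 for the Kupffer, B cell and endothelial lists, and the hepatocyte (r = -0.520) and T and NK cell (r = 0.502) lists passed too.

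**Figure D5:**
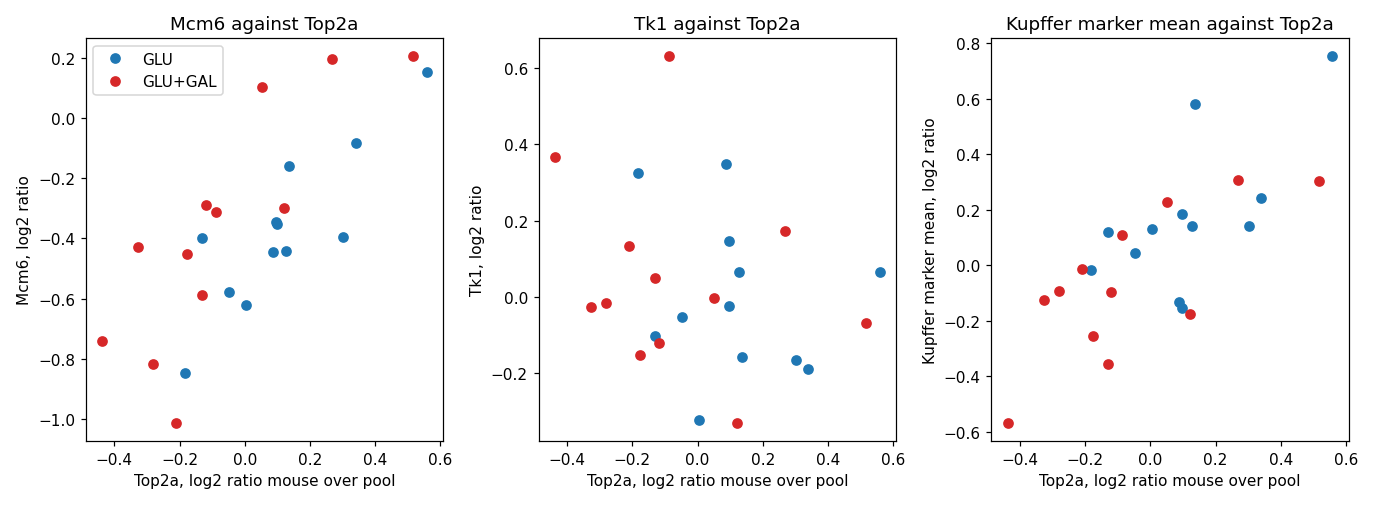
Log2 ratio over the pool of Mcm6, of Tk1 and of the mean of 11 Kupffer cell markers (vertical) against Top2a (horizontal) in 24 mice, coloured by diet. Mcm6 and the Kupffer mean rise with Top2a (r of 0.768 and 0.743), and Tk1 does not (r of -0.252).

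All 11 tested Kupffer markers were well above background on every array, had a positive slope on Top2a, and 4 passed the adjusted threshold over all genes (Timd4, Adgre1, Clec4f and Cd5l), against 0.145% of all genes. The same 11 were all lower in GLU+GAL, with a median difference of -0.21, 6 at an unadjusted p under 0.05, against 2.66% of all genes in that direction, and none after adjustment. Their mean ran from -0.15 to 0.75 in GLU and from -0.57 to 0.31 in GLU+GAL. The B cell and endothelial lists were less uniform. Of 6 tested B cell markers 4 had a positive slope on Top2a, and of 10 endothelial markers 9. At an unadjusted p under 0.05 in limma were 2 and 4, against 4.82% of all genes, and none passed after adjustment. Single r with Top2a ran from -0.19 to 0.62 in the B cell list and from -0.12 to 0.70 in the endothelial list. With Birc5 in place of Top2a the Kupffer, endothelial and B cell lists passed at r of 0.626, 0.594 and 0.567 (permutation test, adjusted p = 0.0082, 0.0098 and 0.0107; rho of 0.563, 0.588 and 0.505, adjusted p = 0.022, 0.022 and 0.040). Their r in the pool channel was -0.138, 0.308 and 0.188. Birc5 itself followed Top2a in these arrays, at r of 0.735, so lists that follow Top2a can pass with it too. It is no separate check. With Mki67 no list passed, the Kupffer list being at r = 0.426 (permutation test, p = 0.038, adjusted p = 0.172) and rho = 0.50 (p = 0.013, adjusted p = 0.067). Whether the dividing cells were Kupffer cells or others was not tested.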

How the data were processed

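Liver RNA of 24 mice was read on 24 Agilent 2-colour arrays. The authors deposited scanner files with the spot intensity of each channel, as written by Agilent Feature Extraction (version 10.7.3.1 in the submitters' processing notes). They also deposited a table of log2 values, whose columns matched the Cy5 signal of their own arrays. The median of each column was 8.6 and genes were uncentred; how the values were scaled stays unknown.

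Of 62976 features, 59305 were not controls, on 56605 probes. Intensities were corrected by normexp (offset 50), loess was applied to the Cy5 over Cy3 log2 ratios array by array, control spots having weight 0, and outlier-flagged spots were left out, in limma 3.58.1 under R 4.3.3. For values of a single channel, the mean log intensities of both channels were also quantile-normalised between arrays. Spots of a probe were averaged. The number of arrays limits the precision. Dyes were not swapped, so levels against the pool carry a dye effect that cancels between mice.

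Diets were compared with limma's lmFit and eBayes, 2-sided, with Benjamini-Hochberg adjustment over all genes. The same fit regressed each gene on Top2a with diet in the model. Only the diet fit, the regression on Top2a and the correlation between genes were tested on simulated data. The members, lists, roles and tests were chosen with earlier results of these data known. The members given with their range are, in each role, the one of highest signal and the one of smallest diet p, with Top2a and Mki67. Other genes named are the 5 followers of Top2a with the smallest p in each direction and the smallest diet p of each list; the 4 Kupffer markers that passed were named after their values were seen. Alternatives covered background correction, normalisation, Cy5 alone, the deposited table, filter, probe choice, blocks, anchors and each array left out. Sequences are RefSeq's, and plots were drawn with matplotlib 3.10.9.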

Additional observations from a re-analysis of the deposited data

How the results depend on the processing

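No member passed the adjusted diet threshold under any of 13 alternatives or with any array left out. The mean diet difference of the members ran from -0.12 (slide 3 alone) to 0.017 (slide 2 alone), with 2 of 14 alternatives above 0, and from -0.061 to -0.0081 with arrays left out. The median correlation between members ran from 0.195 (slide 3 alone) to 0.543 (median centring), and from 0.326 to 0.435 with arrays left out. Both diets share replicate numbers, but 8 of 12 same-numbered pairs had deviations with r above 0.1 and 2 correlated best with their own number, so the numbers were not taken to pair mice. With the replicate block the mean difference was -0.032 and the median correlation 0.238; the block changed no diet call. Against Top2a it ended the call of the endothelial list (r = 0.116, adjusted p = 0.685, permutation test), and the T and NK cell list passed at r = 0.536 (adjusted p = 0.018, permutation test), while the Kupffer and B cell lists passed at 0.911 and 0.824. Both values of a pair mirror each other there, so these p-values, which permute 24 values, are too small.

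The number of members following Top2a, 3 of 21, was 1 with Agilent's processed signals (where 1 gene in all passed), 8 with median centring (0.601% of all genes), 9 with Cy5 alone (0.332%), 10 with the deposited table (1.73%), 1 with the slide as a block, 0 with the replicate block (no gene passed), 5 with array weights, 5 without diet in the model and 0 with Mki67 as anchor. It ran from 1 to 4 with arrays left out. The number of marker lists passing against Top2a, 3, was 1 with Agilent's signals, 0 with Mki67 as anchor, 2 with the slide as a block, with the deposited table and with the mean of all probes, 4 with median centring, 5 without the 3 arrays of unlike pool channel and from 1 to 3 with single arrays left out. With Cy5 alone it was 3, with the T and NK cell list in place of the B cell list. The Top2a diet difference moved to -0.74 with Agilent's signals. The cause was not tested. Top2a is not well above background on all 24 arrays, so that filter gave no value for these counts. Anchors other than Top2a for the lists, Birc5 for the members, and the 3 arrays left out together were chosen after seeing the data.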

Other observations

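Beside the cell cycle genes, the genes that most closely followed Top2a from mouse to mouse were Hist1h2ao, a histone H2A gene whose slope was 1.09 ± 0.18 (SE), Gm32872 at 1.67 ± 0.28, the endothelial protocadherin Pcdh12 at 0.69 ± 0.12, D17H6S56E-5 at 0.95 ± 0.16 and Entpd1, an ectonucleotidase of immune and endothelial cells, at 0.51 ± 0.089. Their adjusted p in limma was 0.010 for the first 4 and 0.012 for Entpd1. Probes of histone genes can share sequence with other copies, so Hist1h2ao is uncertain. In the opposite direction the smallest p was that of Cmbl, a carboxymethylenebutenolidase abundant in liver, with a slope of -1.0 ± 0.13 (adjusted p = 0.00072, limma). It was followed by Gm4737 at -0.99 ± 0.17, Gas1, a growth arrest gene, at -1.01 ± 0.18, Tmem120a at -0.82 ± 0.15 and Oat, ornithine aminotransferase, at -1.34 ± 0.25, with adjusted p from 0.012 to 0.016. In all 27 genes passed with a positive and 18 with a negative slope.

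Of wider lists, 24 of 29 other mitosis genes had a positive slope on Top2a and 12 were at an unadjusted p under 0.05, against 8015 and 898 (4.82%) of all 18648 genes, with none past the adjusted threshold. Of 29 other DNA replication genes 19 were positive, and 9 were at an unadjusted p under 0.05. Of 12 cell cycle transcription factors 4 were positive and none was at that level, and of 8 genes of perinatal liver 4 and none. Of 17 G1 cyclins, CDKs and inhibitors 8 were positive and 3 were at that level. No gene of these 4 lists passed the adjusted threshold.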
